A study of Homo sapiens with 4 samples.

Results

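Integrins are cell surface receptors built from 1 alpha and 1 beta subunit, and the 10 genes described here encode epithelial and matrix-binding subunits. They are the alpha subunit genes ITGA2, ITGA3, ITGA5, ITGA6 and ITGAV and the beta subunit genes ITGB1, ITGB3, ITGB4, ITGB5 and ITGB6. They were chosen by gene name and with earlier results of these data known. ITGB1 is among them because it has been reported as a target of METTL3 in prostate cancer. All 10 names matched 1 row each of a deposited table of 60544 genes, which holds 26 integrin subunit genes in all. All 10 passed the low-count filter.

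Poly(A) RNA was sequenced from PC3, a widely used human cell line grown from a prostate cancer metastasis, and the design set knockdown of METTL3 against a control. The control group carries the label shNC and the knockdown group the label sh812, with 2 libraries each, and all 4 libraries came from PC3 cells in RPMI-1640 medium with serum. METTL3 is the enzyme that adds N6-methyladenosine (m6A) to messenger RNA as part of a larger complex. The knockdown arm has a single hairpin label, so an effect of that hairpin and an effect of METTL3 loss cannot be told apart. The labels do not say whether replicates were separate cultures, so the p-values measure the spread between these libraries, which may be technical.

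Which alpha subunit pairs with which beta subunit decides what an integrin binds. The beta subunit encoded by ITGB1 pairs with many alpha subunits and makes receptors for collagen (with ITGA2), laminin (with ITGA3 or ITGA6) and fibronectin (with ITGA5). Of the beta subunits described here, ITGAV pairs with ITGB1, ITGB3, ITGB5 or ITGB6. Those receptors read the short RGD motif of vitronectin, fibronectin and latent TGF-beta. ITGB4 pairs with ITGA6 alone, in the laminin receptor of hemidesmosomes. In prostate epithelium, basal cells hold most of the ITGA6 and ITGB4 protein, and cancer cells use integrins to attach to and migrate on matrix.

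The METTL3 complex methylates adenosines within short motifs, of which the commonest, in DNA letters, is GGACT, and methylated sites crowd near stop codons and in long last exons. GGACT was searched on the sense strand of the principal transcript of each gene in GENCODE 29 (GRCh38), and 86.7% of the 16627 tested genes with a gene model held it at least once. The ITGB1 transcript (3784 bases, chromosome 10, minus strand) held 4 matches, 2 in the coding sequence and 2 in the 3′ UTR. They are shown because ITGB1 is the reported target and had the largest change among the called genes of the 10, with the motif in capitals and 8 bases on each side, together with the 2 ITGB5 matches nearest the ITGB5 stop codon. The ITGB1 sites lie, in order, at chr10:32935519-32935539 in exon 2, chr10:32928095-32928115 in exon 5, and chr10:32901377-32901397 and chr10:32901298-32901318 in exon 16. Both ITGB5 sites lie in exon 15 on the minus strand, at chr3:124763662-124763682 and chr3:124763617-124763637. The final T of the second ITGB5 match is also the first base of the stop codon.
ITGB1 coding site in exon 2: tctggattGGACTgatcagtt
ITGB1 coding site in exon 5: attacttcGGACTtcagaatt
ITGB1 first 3′ UTR site: catgccagGGACTgacaaaag
ITGB1 second 3′ UTR site: ttcttcctGGACTattgaaat
ITGB5 coding site: cacactgtGGACTtcaccttc
ITGB5 site beside the stop codon: ggcactgtGGACTgatgtttc
The table holds no methylation measurement, so a match marks letters and not a methylated base. Per length, ITGB1 had 1.06 matches per kb against a median of 0.92 over the tested genes. Among the 10 genes the density ran from 0.381 per kb in ITGA2 to 2.06 per kb in ITGB5, and ITGB4 had 11 matches, all in its coding sequence.

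Total counts ranged from 31450648 to 37041330 per library, and 23620 to 24569 genes had at least 1 count. METTL3 itself had 44.3 and 43.6 CPM (counts scaled to library size) in shNC and 7.66 and 8.75 CPM in sh812, which is -2.42 as a log2 fold change (SE 0.11, and 5.54e-14 as the adjusted p in edgeR). The threshold for calling a gene changed was an adjusted p of 0.05, which 10.8% of the 16802 genes tested passed, with 5.43% called higher and 5.42% called lower in sh812. Scaled by library size only, without TMM (a scaling that trims genes of extreme ratio), 561 genes were called higher and 1328 lower. The 5 markers chosen for this line, the epithelial genes KRT8, KRT18, EPCAM and CDH1 and the mesenchymal gene VIM, which PC3 cells also express, summed to 1020 to 1140 CPM in shNC and 1080 to 1116 CPM in sh812. Within that sum 3 of the 5 were called higher, KRT18, EPCAM and CDH1 (log2 fold changes 0.30, 0.45 and 0.57, adjusted p = 0.00793, 0.000128 and 0.00511 in edgeR), KRT18 and CDH1 not without sh812 replicate 2. KRT8 stood at 0.13 (adjusted p = 0.186). VIM stood at -0.18 (adjusted p = 0.055), below 0 in all 14 alternatives and called lower in 7 of them. These markers moved beside the integrin genes, and their part in the integrin values was not tested. The luminal prostate markers KLK2 and KLK3 had 0 counts in every library. The 5 leukocyte markers summed to at most 1.58 CPM, with CD3E at 0. Fibroblast markers summed to 51.9 to 53.2 CPM in shNC and 47.2 to 54.3 CPM in sh812, most of it COL1A1 and COL1A2, and the endothelial markers summed to 42.0 to 43.4 CPM in shNC and 44.4 to 51.1 CPM in sh812. Almost all of the endothelial sum was PECAM1, which was called higher, and KDR, which was called lower, while VWF and CDH5 averaged under 0.1 CPM in both groups. In bulk RNA, fewer cells that express a gene and less of its RNA per cell cannot be told apart.

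Of the 10 integrin genes 5 changed. ITGB1, ITGAV and ITGB5 fell in sh812, by log2 0.57, 0.29 and 0.40, and ITGA2 and ITGB4 rose, by log2 0.31 and 0.40. The other 5, ITGA3, ITGA5, ITGA6, ITGB3 and ITGB6, did not pass the test. The 5 called genes of 10 stand beside 10.8% of all genes tested, and the groups did not overlap in any of the 10, an arrangement that 53.6% of all tested genes showed. Because the 10 were chosen with earlier results of these data known, their share called is a description and not a test. The 10.8% covers genes of every level. Of the 86 tested genes with a mean of at least 1000 CPM, a level that ITGB1 and ITGA3 reached, 40 were called higher and 7 lower. The median log2 fold change of the 10 was -0.13, against -0.006 over all genes. Without sh812 replicate 2 the count was 2 genes, ITGB1 and ITGB5, which were the only members called in each of the 14 alternatives run over all genes.

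**Figure D1:**
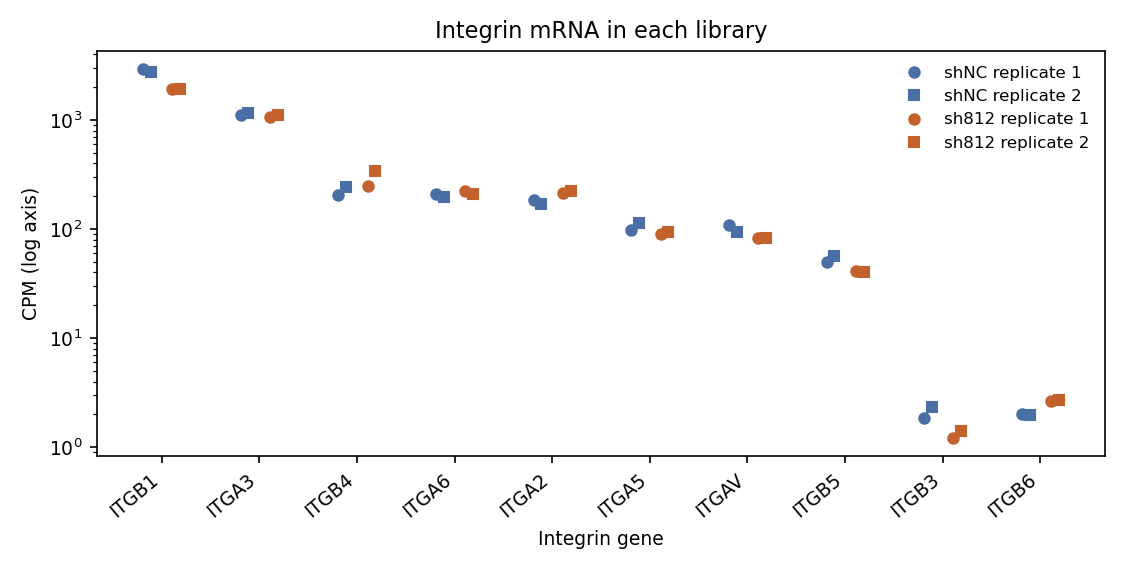
Abundance of the 10 integrin genes in each library, in CPM on a log axis, ordered by the shNC mean (blue shNC, orange sh812, circle replicate 1, square replicate 2). ITGB1 lies between 1910 and 2923 CPM, and ITGB3 and ITGB6 lie under 3 CPM in all 4 libraries.

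Levels of different genes were compared per length, as TPM, counts divided by length and scaled to the same total in each library, from the exon-union length of each gene. In shNC, ITGB1 was the most abundant of the 10 at 1871 ± 127 TPM (SD, n = 2), followed by ITGA3 at 459 ± 2.19 TPM. ITGB4 at 131 ± 13.2 TPM and ITGA6 at 123 ± 7.13 TPM came next and overlapped between libraries. ITGA2 followed at 88.9 ± 6.89 TPM, then ITGA5 at 55.0 ± 4.52 and ITGAV at 49.1 ± 6.62 TPM, which overlapped each other, and ITGB5 at 32.9 ± 2.18 TPM. ITGB3 at 1.88 ± 0.269 TPM and ITGB6 at 1.70 ± 0.0646 TPM also overlapped. In sh812 the order was the same except that ITGB6 stood above ITGB3, and all neighbours were apart. With the principal transcript's length in place of the exon union, ITGA5 stood above ITGA2 in shNC, with overlapping libraries. The 10 genes held 98.1% of the summed TPM of all 26 integrin genes in shNC and 97.7% in sh812.

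Among the beta subunits, ITGB1 fell from the highest level. It had 110871 and 86966 counts in shNC and 67371 and 68357 in sh812. That is 2923 and 2750 CPM against 1919 and 1910 CPM, so both knockdown libraries lay well below both controls and close to each other. The log2 fold change was -0.57 (SE 0.05, 95% interval -0.68 to -0.46, adjusted p = 9.97e-08 in edgeR). ITGB1 ranked 11 by shNC abundance among the genes tested. Of the 86 tested genes with a mean of at least 1000 CPM, 7 were called lower and 40 higher, and ITGB1 had the lowest fold change of the 86. The gene lies on chromosome 10 from 32900319 to 33005792, minus strand, and the divergent noncoding gene ITGB1-DT overlaps it on the other strand at 13.1 to 16.3 CPM. The processed pseudogene ITGB1P1 on chromosome 19 had counts equal to 0.407% to 0.511% of those of ITGB1. With these added to ITGB1 the log2 fold change was -0.57. Over all alternatives the log2 fold change of ITGB1 ran from -0.61 to -0.52.

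ITGB5, the beta subunit of a vitronectin receptor made with ITGAV, had 50.1 and 57.0 CPM in shNC and 40.9 and 40.4 CPM in sh812. The knockdown libraries were below both controls by more than they differed from each other. Its log2 fold change was -0.40 (SE 0.08, 95% interval -0.57 to -0.23, adjusted p = 0.0025 in edgeR), and ran from -0.49 to -0.30 over the alternatives. ITGB5 lies on chromosome 3 from 124761948 to 124901418, minus strand.

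ITGB4, whose long cytoplasmic tail anchors keratin filaments through plectin, rose with a wide spread. It had 204 and 244 CPM in shNC and 249 and 344 CPM in sh812. The lower sh812 library stood just above the higher shNC library, and sh812 replicate 2 stood apart from the other 3. The log2 fold change was 0.40 (SE 0.10, 95% interval 0.21 to 0.60, adjusted p = 0.00728 in edgeR). Without sh812 replicate 2 it was 0.15 (adjusted p = 0.457), without that group's replicate 1 it was 0.62, and DESeq2 gave 0.41 with an adjusted p of 0.356. ITGB4 lies on chromosome 17 from 75721328 to 75757818, plus strand, and GALK1 overlaps it on the other strand, with the strand setting of the counting not given in the sources used here.

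ITGB3 and ITGB6 were at the edge of detection. ITGB3, the beta subunit of the classical vitronectin receptor of platelets and osteoclasts, had 70 and 74 counts in shNC and 43 and 50 in sh812, a log2 fold change of -0.67 whose 95% interval ran from -1.35 to 0.01 (adjusted p = 0.209 in edgeR). A readthrough gene overlaps it on the same strand, so its counts are uncertain. ITGB6, an epithelial subunit that activates latent TGF-beta, had 77 and 63 counts in shNC and 94 and 96 in sh812. Its log2 fold change was 0.41 (95% interval -0.14 to 0.97, adjusted p = 0.363 in edgeR). ITGB3 lies on chromosome 17 from 47253846 to 47311816, plus strand, and ITGB6 on chromosome 2 from 160099666 to 160200313, minus strand. At these counts neither change was detectable, and the intervals leave room for changes larger than those of ITGB1 and ITGB4.

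Among the alpha subunits, ITGA2 and ITGAV moved in opposite directions. ITGA2, the collagen-binding subunit, had 184 and 171 CPM in shNC and 216 and 223 CPM in sh812, so both knockdown libraries were above both controls. Its log2 fold change was 0.31 (SE 0.06, 95% interval 0.18 to 0.43, adjusted p = 0.00174 in edgeR). It was 0.28 without sh812 replicate 2, where the adjusted p was 0.0676, and 0.40 with the length trend removed. ITGA2 lies on chromosome 5 from 52989326 to 53094779, plus strand.

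ITGAV, the shared partner of the RGD-binding beta subunits, had 110 and 93.8 CPM in shNC against 83.5 and 83.5 CPM in sh812. Both controls were higher than both knockdown libraries, and the controls differed from each other by more than the lower of them differed from sh812. The log2 fold change was -0.29 (SE 0.07, 95% interval -0.44 to -0.14, adjusted p = 0.0121 in edgeR). The call was lost without shNC replicate 1 (-0.17, adjusted p = 0.106), without sh812 replicate 1 (-0.28, adjusted p = 0.114) and without sh812 replicate 2 (-0.29, adjusted p = 0.103). It was also lost with the length trend removed (-0.19, adjusted p = 0.0554). ITGAV lies on chromosome 2 from 186590065 to 186680901, plus strand.

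ITGA3, the most abundant alpha subunit and a laminin receptor subunit, had 1119 and 1151 CPM in shNC and 1069 and 1107 CPM in sh812. The groups were close, and the log2 fold change of -0.06 had a 95% interval of -0.17 to 0.05 (adjusted p = 0.539 in edgeR). ITGA6, which pairs with ITGB1 or ITGB4, had 208 and 199 CPM in shNC and 222 and 209 CPM in sh812, with a log2 fold change of 0.08 (95% interval -0.04 to 0.21, adjusted p = 0.418 in edgeR). For both genes the intervals leave out a change as large as that of ITGB1. ITGA5, the fibronectin receptor subunit, had 97.4 and 113 CPM in shNC and 89.2 and 94.0 CPM in sh812. Its log2 fold change of -0.20 (95% interval -0.35 to -0.05) missed the threshold at an adjusted p of 0.0752 in edgeR, and passed it at 0.0305 with library size alone, at 0.0477 with a minimum mean CPM of 1 and at 0.000141 without shNC replicate 1. ITGA3 lies on chromosome 17 from 50055968 to 50090481 and ITGA6 on chromosome 2 from 172427354 to 172506282, both on the plus strand, and ITGA5 lies on chromosome 12 from 54395261 to 54419460, minus strand.

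**Figure D2:**
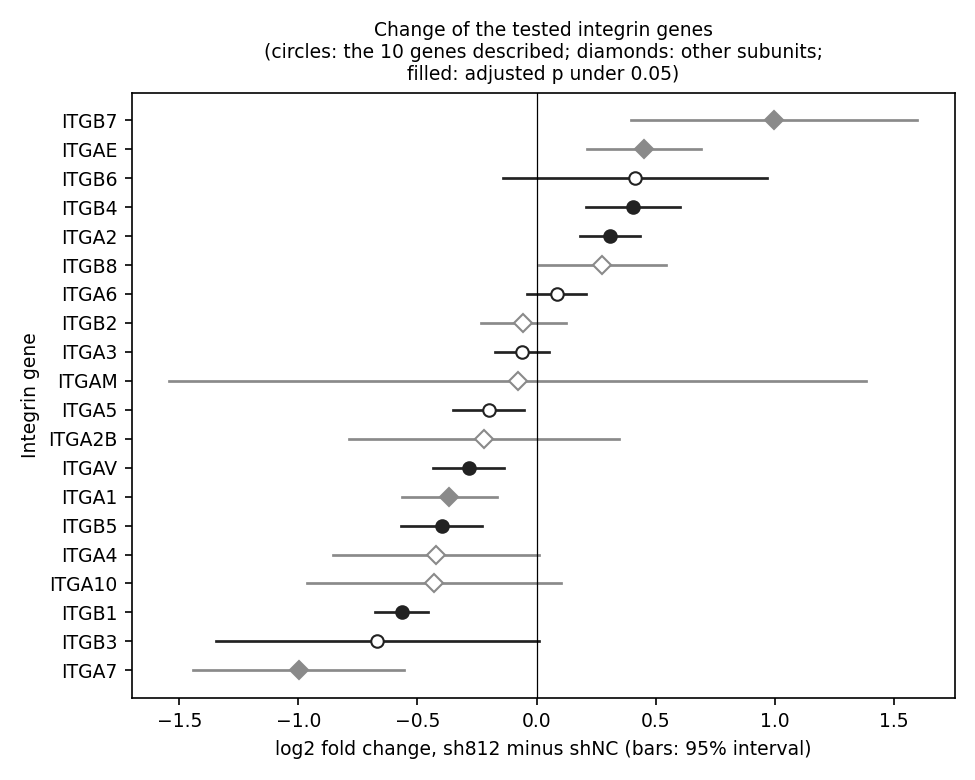
Log2 fold change of sh812 over shNC for the 20 integrin genes that passed the low-count filter, with 95% intervals (circles, the 10 genes described, diamonds, other subunits, filled symbols, adjusted p under 0.05). ITGB1 has the narrowest interval of the genes called lower, from -0.68 to -0.46, and that of ITGB3 runs from -1.35 to 0.01.

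All 10 principal transcripts were longer than the median of 2777 bases over the tested genes, from 3784 bases in ITGB1 to 7869 in ITGA2. The change correlated with transcript length across 12250 genes (Spearman rho -0.33), and so did the difference between the control libraries, as replicate 2 minus replicate 1 (rho -0.32). The same difference between the knockdown libraries gave rho 0.04. All of these are correlations across genes, which do not act as replicates. With each library's length trend removed, ITGB1 stood at -0.53, ITGB5 at -0.34, ITGB4 at 0.49 and ITGA2 at 0.40, all still called. ITGAV was no longer called, and ITGA3 moved from -0.06 to 0.01. ITGA6 moved from 0.08 to 0.17 and stayed just short of a call (adjusted p = 0.0548 in edgeR).

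Ratios between integrin mRNAs within a library do not depend on scaling between libraries, and they are given as descriptions, since an exact two-sided permutation test of 2 libraries against 2 cannot go below p = 0.333. ITGB4 stood at 6.22 and 7.89 TPM per 100 TPM of ITGB1 in shNC, and at 11.5 and 16.0 in sh812. Both knockdown libraries were above both controls, and the mean went from 7.06 ± 1.18 to 13.8 ± 3.16 (SD, n = 2). ITGB1 made up 91.4% and 89.7% of the summed TPM of all beta subunits in shNC and 86.3% and 82.9% in sh812. The ITGB1 level per summed level of the alpha subunits known to pair with it was 2.43 and 2.29 in shNC and 1.64 and 1.60 in sh812, so ITGB1 mRNA stayed above the sum of its partners in every library. That sum itself was 792 ± 20.1 TPM in shNC and 730 ± 13.4 TPM in sh812 (SD, n = 2). Unlike the ratios, the sum depends on scaling between libraries, and TPM had no TMM scaling. Mean TPM went from 459 to 411 for ITGA3 and from 123 to 122 for ITGA6. Their log2 fold changes with TMM were -0.06 and 0.08. ITGA2 stood at 1.74 and 1.89 times the TPM of ITGAV in shNC and at 2.69 and 2.77 times in sh812. With principal transcript lengths the ITGB4 ratio was 5.07 ± 0.852 and 9.91 ± 2.28 (SD, n = 2), since a change of length rescales all 4 libraries alike.

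**Figure D3:**
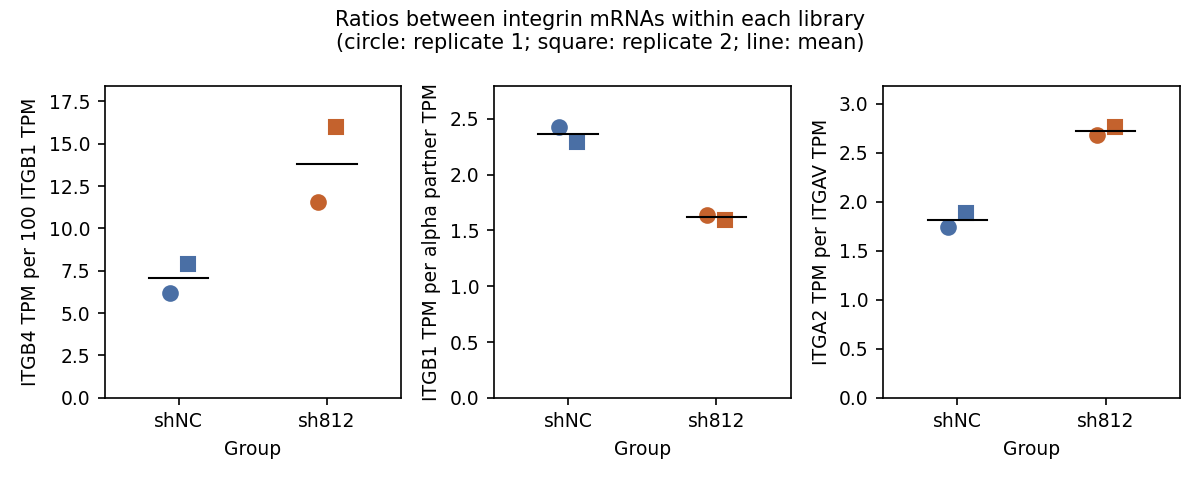
Ratios of TPM values within each library, with axes from 0 (circle replicate 1, square replicate 2, line mean of 2 libraries). ITGB4 per 100 ITGB1 rises from 6.22 and 7.89 to 11.5 and 16.0, ITGB1 per alpha partner falls from 2.43 and 2.29 to 1.64 and 1.60, and ITGA2 per ITGAV rises from 1.74 and 1.89 to 2.69 and 2.77.

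Of the 16 other integrin subunit genes, 10 were tested, and 2 were called higher and 2 lower, beside 10.8% of all genes tested. The count was 2 without sh812 replicate 1 (1 higher, 1 lower), without sh812 replicate 2 (0 higher, 2 lower) and without shNC replicate 1 (0 higher, 2 lower). ITGA7, a laminin-binding subunit of muscle, had 7.14 and 5.03 CPM in shNC and 2.56 and 3.55 CPM in sh812, and its log2 fold change was -0.998 (SE 0.21, adjusted p = 0.00359 in edgeR), called in all 14 alternatives. ITGA1, a collagen-binding subunit like ITGA2, went the other way from ITGA2, with 40.4 and 40.7 CPM in shNC and 27.8 and 35.1 CPM in sh812 (log2 fold change -0.37, adjusted p = 0.0153 in edgeR), and lost its call with the length trend removed and without sh812 replicate 1. PELO lies inside ITGA1 on the same strand. ITGAE, whose product pairs with that of ITGB7 on mucosal lymphocytes, rose from 13.5 ± 1.23 to 18.4 ± 0.826 CPM (SD, n = 2), and ITGB7 had 46 and 56 counts in shNC and 97 and 113 in sh812 (log2 fold changes 0.45 and 1.00, adjusted p = 0.0133 and 0.0275 in edgeR). HASPIN and ZNF740 overlap these genes on the other strand, and ITGAE and ITGB7 were called in 12 and 10 of the 14 alternatives. ITGB2, the leukocyte beta subunit, had 38.2 and 39.7 CPM in shNC and 35.2 and 39.7 CPM in sh812 (log2 fold change -0.06, adjusted p = 0.76 in edgeR). ITGAL and ITGAX, 2 of its partners, had 0 counts in every library. ITGB8 and ITGA4, the remaining genes with a mean of at least 5 CPM in shNC, had log2 fold changes of 0.28 (adjusted p = 0.186) and -0.42 (adjusted p = 0.216). ITGA10, ITGA2B and ITGAM were tested at lower levels and not called, and ITGA8, ITGA9, ITGA11 and ITGAD did not pass the filter.

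The partner genes of integrins were taken from lists that were written with earlier results of these data known, and they are described by their counts beside the background of 10.8%. Matrix ligands had the largest share called among the partner lists, at 60.9%. Of 25 ligand genes 23 were tested, and 2 were called higher and 12 lower, with a median log2 fold change of -0.25. The matricellular protein TGFBI, a ligand with integrin-binding motifs, had 74.7 and 82.0 CPM in shNC and 24.4 and 26.9 CPM in sh812 (log2 fold change -1.61, SE 0.08, adjusted p = 9.36e-13 in edgeR), the largest fall among the 4 ligands named here. CCN1, a secreted ligand of ITGAV receptors, fell from 316 ± 11.9 to 235 ± 10.6 CPM (SD, n = 2). Tenascin C (TNC) fell from 370 ± 5.64 to 288 ± 2.55 CPM and fibronectin (FN1) from 650 ± 11.9 to 522 ± 26.7 CPM (SD, n = 2; log2 fold changes -0.36 and -0.32, adjusted p = 0.000153 and 0.000687 in edgeR). The 2 called higher were COL1A2, a chain of type I collagen (log2 fold change 0.50, adjusted p = 0.0116), and NPNT, a ligand of kidney and epithelial integrins at 3.44 ± 0.584 and 5.59 ± 1.86 CPM (adjusted p = 0.0408). COL1A2 lost its call without either sh812 library and NPNT in 5 of the 14 alternatives. The number of ligand genes called depended on the libraries, at 4 without sh812 replicate 1, where FN1 lost its call, 7 without sh812 replicate 2, and 15 and 19 without shNC replicate 1 and 2. With the length trend removed 2 were called higher and 8 lower.

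Of the 7 hemidesmosome and laminin-332 genes, which serve the ITGA6 and ITGB4 receptor, 2 were called, both lower, and the median log2 fold change was -0.11. They were 2 chains of laminin-332, the basement membrane laminin that ITGA3 and ITGA6 receptors bind. LAMA3 had 515 and 502 CPM in shNC and 351 and 404 CPM in sh812 (log2 fold change -0.43, adjusted p = 6.77e-05 in edgeR), and LAMB3 had 729 and 782 CPM against 560 and 597 CPM (-0.39, adjusted p = 8.9e-05). Both were called in all 14 alternatives. ITGB4 and these ligand chains had opposite signs. The count was 4 without shNC replicate 2.

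Among 35 cytoplasmic adhesion genes 3 were called higher and 4 lower, with a median of -0.02. TNS4, a tensin that binds the beta subunit tail, had 35.7 and 36.0 CPM in shNC and 54.6 and 60.4 CPM in sh812, with no overlap and a log2 fold change of 0.68 (adjusted p = 3.43e-06 in edgeR, called in all 14 alternatives). The balance of directions turned with the scaling, at 1 higher and 6 lower with library size alone, where CSK and SHARPIN lost their calls, and 6 higher and 2 lower with the length trend removed, where PARVA and TLN1 lost theirs. CSK, the kinase that inhibits SRC, and SHARPIN, an inhibitor of integrin activation, rose by log2 0.24 and 0.23 (adjusted p = 0.0249 and 0.0208). The called lower genes were RSU1 and PARVA, which belong to the same adhesion complex as the kinase ILK, and the integrin activators TLN1 and FERMT2. Their log2 fold changes were -0.35, -0.29, -0.19 and -0.19 (adjusted p = 0.00294, 0.0181, 0.03 and 0.038 in edgeR). The number called was 1 without sh812 replicate 2, where TNS4 remained called, 2 without sh812 replicate 1 and 14 without shNC replicate 2.

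Of 14 membrane partners 2 were called higher and 1 lower. The caveolar protein CAV1 had 428 and 433 CPM in shNC and 549 and 563 CPM in sh812 (log2 fold change 0.37, adjusted p = 9.36e-05 in edgeR), and the adhesion molecule EPCAM rose by log2 0.45 (adjusted p = 0.000128). The tetraspanin CD82 had 61 and 41 counts in shNC and 10 and 17 in sh812 (log2 fold change -1.93, adjusted p = 0.0114 in edgeR). Only 12 alternatives gave CD82 an adjusted p, and it was called in 10 of them. It lost its call without shNC replicate 1 and without sh812 replicate 1. The membrane count was 5 with library size alone or without shNC replicate 1, and 6 without shNC replicate 2. None of the 11 tested genes of integrin traffic was called by edgeR, and 2 were called without shNC replicate 2. At an unadjusted p under 0.05 edgeR gave 1 of them, HAX1 (log2 fold change 0.15), and DESeq2 and limma-voom called 0 at an adjusted p under 0.05.

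**Figure D4:**
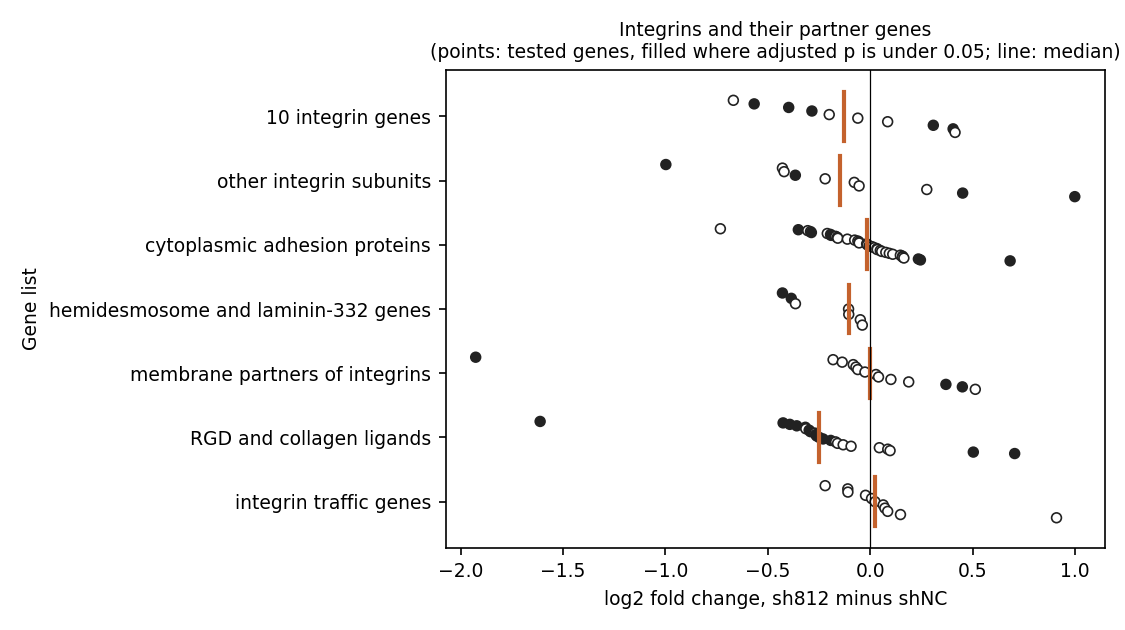
Log2 fold change of sh812 over shNC for each tested gene of the integrin and partner lists (filled points, adjusted p under 0.05, bars, the median of each list). Ligand genes have the lowest median, -0.25, and TGFBI lies lowest among the called ligands at -1.61.

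By Euclidean distance between log2 CPM values centred on each gene's own mean over the 4 libraries, the genes of these lists most like ITGB1 were CCN2 (0.19), CCN1 (0.19) and LAMA3 (0.20). CCN2, another matricellular ligand, had 34.0 and 34.3 CPM in shNC and 25.5 and 26.5 CPM in sh812. Such closeness over 4 libraries describes only these libraries.

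Promoters from RefSeq (GRCh38.p14), 250 bases before to 50 after each start, matched 7 of the 10 genes. Where a gene had more than 1 entry, the one nearest the start of its principal transcript was used. The RefSeq start lay 336 bases from that of the principal transcript in ITGB1, 194 in ITGA5 and 9 to 68 in the other genes. GGGCGG, the GC box, was searched on both strands and stood in ITGA2 (4 matches), ITGB1, ITGB5 and ITGA6 (3 each) and ITGA5 (1), against 45.0% of 35116 promoters that held at least 1. ITGAV and ITGB6 had none. The TATA box (TATAAA, 11.5% of promoters) and CCAAT (34.6%) were in none of the 7, and the AP-1 motif TGAGTCA (4.95%) was in ITGA5 alone.

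**Figure D5:**
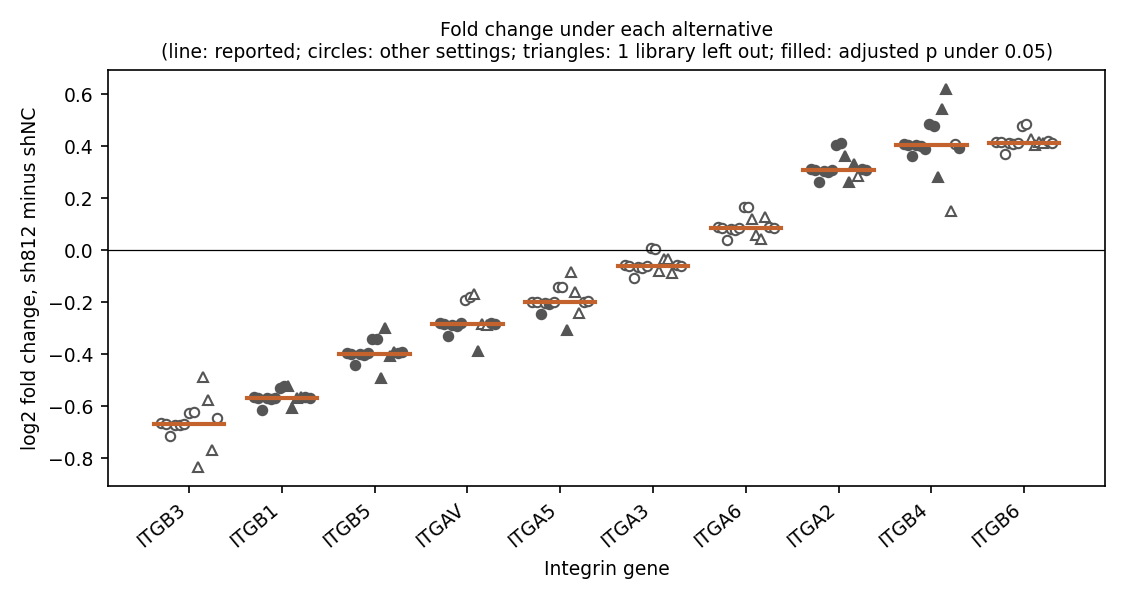
Log2 fold change of sh812 over shNC for the 10 integrin genes (lines, the values reported, circles, other settings, triangles, 1 library left out, filled where the adjusted p is under 0.05). ITGB1 stays between -0.61 and -0.52 and ITGB5 between -0.49 and -0.30, while ITGB4 spans 0.15 to 0.62.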

How the data were processed

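Poly(A) RNA of PC3 cells was read as stranded, paired 150-base reads, per the labels' protocols. The authors deposited 1 table of raw counts per gene, and the submitters' processing notes name fastp, STAR 2.7.1a, featureCounts, DESeq2 and hg38. The annotation release and strand setting are not given in the sources used here. Counts of all genes were fitted with edgeR 4.0.16 in R 4.3.3 (filterByExpr, TMM, quasi-likelihood test, Benjamini-Hochberg over the 16802 genes tested, called at an adjusted p under 0.05, 2 shNC against 2 sh812). SEs are the log2 fold change over the root of F. CPM uses TMM library sizes, and TPM divides counts by the exon-union length of GENCODE 29. Sequences came from GENCODE 29 transcripts. Totals of 31450648 to 37041330 counts per library set the precision, and depth limits ITGB3 and ITGB6 most. The fit was tested on simulated data. Alternatives used other scaling and filters, DESeq2 1.42.0, limma-voom (limma 3.58.1), a replicate block, removal of trends with transcript length and GC content (lowess span 0.3), and leaving out each library. The transcript-length TPM, the pseudogene sum and the alternatives for partner lists were chosen after seeing the data. The integrin genes and all gene lists were chosen with earlier results of these data known. Named genes were METTL3, the 10 integrin genes, other integrin genes that were called or had a mean of at least 5 CPM, up to 4 called genes per direction and partner list with the smallest p, and the 3 most like ITGB1.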

Additional observations from a re-analysis of the deposited data

How the results depend on the processing

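ITGB1 and ITGB5 kept their direction and their call under all 14 alternatives run on every gene. Leaving out each library gave 2 to 5 called integrin genes of 10 and 587 to 3252 called genes in all, against 5 and 1822. The lowest totals were 587 without sh812 replicate 1 and 682 without sh812 replicate 2, and the highest was without shNC replicate 2. Each of these fits assumes that the lone library varies like the other group, and the cause of the differences was not tested. DESeq2 and both trend removals called 4 integrin genes, and library size alone and a mean CPM of at least 1 called 6. ITGA3 changed sign with the length trend removed (0.0082) and with length and GC trends removed (0.0053), near 0 in each. With a replicate block 2001 genes were called, including 5 integrin genes, and METTL3 stood at -2.42. The replicate 2 minus replicate 1 difference in shNC correlated at 0.0164 across genes with that in sh812. The labels do not say whether a replicate number marks a shared batch. This correlation cannot decide it, since each group gives a single difference. Counting error limits ITGB3 and ITGB6, at 43 to 96 counts per library.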

Other observations

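The gene of the integrin-linked kinase, ILK, was listed at 19 and 5 counts in shNC and 14 and 8 in sh812, chosen for mention after its values were seen. RSU1 and PARVA, whose proteins bind in the same complex, stood at 49.3 to 65.2 CPM and 43.3 to 55.3 CPM. TAF10, which overlaps ILK on the opposite strand, had 4.48 and 5.63 CPM in shNC and 4.56 and 5.34 CPM in sh812. The handling of reads over both genes is not given in the sources used here, and its part in these levels was not tested.

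The control libraries differed from each other more than the knockdown libraries did, at 8.43 against 4.51 in chi-square per gene, where sampling noise alone gives about 1. ITGB1 showed the same order, at 2923 and 2750 CPM in shNC and 1919 and 1910 CPM in sh812.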
